A study of Mus musculus with 2 samples.

Results

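Sites of open chromatin at genes of small noncoding RNAs were collected from DNase-seq of mouse hippocampus. DNase I cuts DNA that is not wrapped around nucleosomes, and a peak marks a stretch with many cut ends. A peak was taken when it lay on an autosome, overlapped a GENCODE M21 gene of type miRNA, snRNA, snoRNA, scaRNA, misc_RNA or rRNA widened by 200 bp on each side, and was over 500 bp from every start of a protein-coding transcript. This gave 311 of 129054 autosomal peaks in replicate 1 and 156 of 58199 in replicate 2. Joined where they overlapped, they formed 345 sites at 325 of the 5682 annotated autosomal genes of these 6 types. The choice used position and gene type, not height or presence in both replicates.

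The series held 1 group of 2 biological replicates and no treatment or control. Both were hippocampus of male B6CASTF1/J mice aged 2 months. This strain is an F1 of B6 and CAST, so reads of both parental alleles were pooled on the mm10 reference. The labels give a single donor entry for both and name no separate animals, so the spread between them may be technical. Per the labels the tissue is a layer of hippocampus, and the layer is not named. Peaks at the promoters of the neuronal genes Camk2a, Neurod6, Neurod2, Wfs1, Gad1 and Gad2, of the astrocyte gene Slc1a2 and of the oligodendrocyte gene Mbp were found in both replicates. Peaks at the promoters of Slc17a7, Prox1, Aqp4, Mog, Csf1r and Cx3cr1 were found in replicate 1 alone, and none were found at Gfap, Cldn5, Alb (liver) or Acta1 (muscle).

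Small noncoding RNAs are made from promoters of different kinds. Genes of the spliceosomal U RNAs have their own short promoters, with a distal element upstream of the gene that often holds the octamer ATTTGCAT, and are read by RNA polymerase II or, for U6, by RNA polymerase III. Signal recognition particle RNA, 7SK, Y, vault and transfer RNAs are also products of RNA polymerase III. MicroRNAs are cut from longer transcripts whose start can lie far from the hairpin, and most snoRNAs and scaRNAs are released from introns of host genes, so that an open promoter need not lie at the small RNA itself.

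Heights are the authors' deposited signal values, whose scaling is not stated and which step in whole multiples as counts scaled to depth would. Each pair below gives replicate 1 before replicate 2. A site was counted in both replicates where a member peak overlapped any peak of the other by at least 1 bp, and at 14 sites the other peak itself missed the rule. The height of a site is that of its tallest peak that met the rule, or of the overlapping peak where none did. A taller peak within the site that missed the rule is not counted. Of the 345 sites, 121 were found in both replicates, 190 in replicate 1 alone and 34 in replicate 2 alone. Of the 311 replicate 1 peaks, 38.9% overlapped a replicate 2 peak (95% exact Clopper-Pearson interval 33.5 to 44.6%), against a background of 30.4% of all replicate 1 peaks over 500 bp from a coding start. Of the 156 replicate 2 peaks, 77.6% overlapped a replicate 1 peak (70.2 to 83.8%), against a background of 79.1%. The share of replicate 1 peaks was above its background beyond counting error, but not when peaks within 500 bp of a start of any other gene type were also left out (34.6%, 28.8 to 40.7%, against 29.8%), and the interval of the replicate 2 share included its background. Intervals cover counting error only. The 2 lists differed in length, and with lists of equal length the shares were 65.2% and 66.0%, against 57% and 59.1% of all such peaks.

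The gene types differed in how often a site was found in both replicates. The counts were 31 of 62 sites at snRNA genes (50%, 37.0 to 63.0%), 55 of 157 at miRNA genes (35.0%, 27.6 to 43.0%), 17 of 42 at misc_RNA genes (40.5%, 25.6 to 56.7%), 14 of 78 at snoRNA genes (17.9%, 10.2 to 28.3%), 2 of 5 at scaRNA genes and 3 of 6 at rRNA genes. The intervals of snRNA and snoRNA sites did not overlap, and those of the other types overlapped both. These intervals treat sites as independent, although the 62 snRNA sites lay at 48 genes, some of them alike in sequence. Of all 112942 joined regions of peaks away from coding starts, 30375 held such peaks of both replicates. For the sites, the peak of the other replicate could be any peak. Replicate 1 peaks were also taller at snRNA genes, with a median of 1.13 against 0.642 at snoRNA genes. The part of height in the contrast was not tested. Of the snoRNA sites 27 lay at the SNORA17 copies described below, 2 of them in both. All 30 replicate 2 peaks at snRNA genes overlapped a replicate 1 peak, against 12 of 24 at snoRNA genes. The background was 79.1% of all replicate 2 peaks over 500 bp from a coding start. A site may touch genes of several types, as 5 did. As a share of annotated genes, 27 of 1292 snRNA genes (2.09%), 56 of 2054 miRNA genes (2.73%), 19 of 1442 snoRNA genes (1.32%), 2 of 46 scaRNA genes (4.35%), 17 of 527 misc_RNA genes (3.23%) and 3 of 321 rRNA genes (0.935%) had a site in both.

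**Figure D1:**
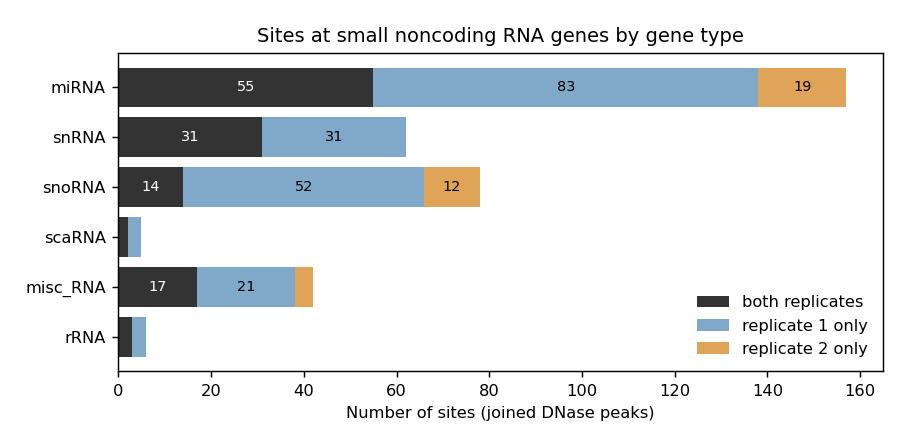
Number of sites by gene type (horizontal axis, joined peaks), split into sites found in both replicates, in replicate 1 alone and in replicate 2 alone. Sites in both replicates make up 31 of 62 at snRNA genes and 14 of 78 at snoRNA genes, and snRNA genes had no site in replicate 2 alone.

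Sites of 4 kinds described below are shown by sequence, read from GRCm38 (the assembly named mm10) on the strand of the named gene, in lower case with the searched word in capitals. The first set is upstream of genes of the spliceosomal RNAs U6 (Gm23296, chr12:52604721-52604940, minus strand), U2 (Gm24950, chr11:101641401-101641640, plus strand) and U5 (Gm25313, chr9:65196841-65197020, minus strand), and the capitals are the octamer ATTTGCAT or its reverse complement.
Gm23296: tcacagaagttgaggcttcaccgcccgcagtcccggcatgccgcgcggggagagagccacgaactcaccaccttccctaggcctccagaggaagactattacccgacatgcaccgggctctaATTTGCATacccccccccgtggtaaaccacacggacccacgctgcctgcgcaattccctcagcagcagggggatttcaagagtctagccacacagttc
Gm24950: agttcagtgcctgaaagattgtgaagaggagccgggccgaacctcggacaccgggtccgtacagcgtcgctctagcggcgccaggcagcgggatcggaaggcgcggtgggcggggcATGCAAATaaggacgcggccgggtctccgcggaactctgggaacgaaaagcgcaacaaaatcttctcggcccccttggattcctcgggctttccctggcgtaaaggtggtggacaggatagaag
Gm25313: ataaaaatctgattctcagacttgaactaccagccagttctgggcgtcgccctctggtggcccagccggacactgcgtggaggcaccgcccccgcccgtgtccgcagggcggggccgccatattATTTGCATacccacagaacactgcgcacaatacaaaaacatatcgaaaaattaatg
The second is a site that holds the cAMP response element TGACGTCA, the word bound by CREB, at the brain miRNA genes Mir212 and Mir132 (chr11:75173541-75173820, plus strand).
Mir132: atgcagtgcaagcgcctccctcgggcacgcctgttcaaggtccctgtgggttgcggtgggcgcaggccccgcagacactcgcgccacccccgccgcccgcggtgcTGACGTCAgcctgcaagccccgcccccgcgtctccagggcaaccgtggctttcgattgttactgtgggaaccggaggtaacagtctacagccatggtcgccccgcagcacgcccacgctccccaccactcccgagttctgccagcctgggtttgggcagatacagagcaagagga
The third set lies at transfer RNA genes with a miRNA annotation on or beside them, n-TStga1 (chr13:23518101-23518300, plus strand) and Mir8105 (chr10:128458441-128458680, plus strand), with the internal B box GTTCGANNC or its reverse complement in capitals.
n-TStga1: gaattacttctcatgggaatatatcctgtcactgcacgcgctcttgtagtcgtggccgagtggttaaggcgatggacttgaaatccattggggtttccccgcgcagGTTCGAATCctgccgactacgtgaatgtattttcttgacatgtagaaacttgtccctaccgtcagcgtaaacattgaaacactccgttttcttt
Mir8105: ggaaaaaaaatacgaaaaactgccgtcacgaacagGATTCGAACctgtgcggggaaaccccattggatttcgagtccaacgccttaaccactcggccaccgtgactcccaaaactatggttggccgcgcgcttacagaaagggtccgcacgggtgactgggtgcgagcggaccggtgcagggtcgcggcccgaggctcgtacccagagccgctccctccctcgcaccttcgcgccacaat
The last is one of many copies named SNORA17 by RefSeq, Gm25232 (chr13:48572261-48572420, minus strand), with AGGTGGCAG, a core form of the CTCF site, in capitals.
Gm25232: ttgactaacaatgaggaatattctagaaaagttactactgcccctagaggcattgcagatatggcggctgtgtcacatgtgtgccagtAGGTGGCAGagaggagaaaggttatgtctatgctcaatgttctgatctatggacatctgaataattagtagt

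Mature miRNAs of genes with a site in both replicates are given from RefSeq on GRCm38.p6, with the seed (bases 2 to 8) in capitals. The table matched 35 of the 56 such genes, with 59 mature miRNAs and 53 seeds. The brain miRNAs miR-132-3p and miR-212-3p had the same seed, as did miR-344-3p and miR-344c-3p, and the other miRNAs shown had seeds of their own.
miR-132-3p: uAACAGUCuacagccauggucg
miR-212-3p: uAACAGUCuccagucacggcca
miR-9-5p: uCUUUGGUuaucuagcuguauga
miR-128-3p: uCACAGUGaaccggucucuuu
miR-137-3p: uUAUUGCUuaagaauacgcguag
let-7i-5p: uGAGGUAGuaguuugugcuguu
miR-344-3p: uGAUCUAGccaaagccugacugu
miR-344c-3p: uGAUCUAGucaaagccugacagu

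At the spliceosomal and U7 RNA genes, sites were found in both replicates at 8 of 25 U2 genes, 5 of 115 U1 genes and 2 of 11 U4 genes. The counts were 3 of 11 for U5, 1 of 3 for U11 and 4 of 655 for U6. They were 0 of 4 for U12, 0 of 14 for U6atac and 0 of 43 for U7. The share over all snRNA genes was 2.09%. In each of U1, U2, U5, U6, U7 and U12, 1 gene had a peak within the start limit. Families are those of the RefSeq product at the gene, and snRNA genes named beyond the highest 6, the Rnu symbols and the highest in 1 replicate alone were chosen after their values were seen. U2, which pairs with the branch point of introns, had its sites on 2 chromosomes. On chromosome 1 its 4 genes lay within 29.0 kb, all had a site and 3 had one in both replicates. On chromosome 11, 6 of 7 genes had a site and 5 had one in both, 5 of the 7 genes lying within 53.6 kb and Gm23444 and Gm22423 apart from them. None of the 14 U2 genes typed snRNA on other chromosomes had a site. The highest was Gm24497 on chromosome 1, with 5.21 and 3.04. On the same chromosome Gm25360 had 2.97 and 1.42. On chromosome 11, Gm24950 had 2.84 and 1.99 and Rnu2-10 had 2.24 and 2.33. Replicate 1 was the higher at all 3 such genes of chromosome 1 and replicate 2 at 3 of 5 on chromosome 11.

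The highest snRNA site lay upstream of the U6 gene Gm23296, with 6.28 and 3.28. The neighbouring U6 gene on chromosome 12, Gm24859, had 3.08 and 1.87, and these neighbours were the highest of the 10 U6 genes with a site. The U5 gene Gm25313 had 5.85 and 2.07 and its neighbour Rnu5g had 2.56 and 1.06. U5 contacts the exons at the splice sites. For U1, which pairs with the 5' splice site, Gm22513 had 5.16 and 1.91 and Rnu1a1 had 3.39 and 1.98. The U1 genes with a site in both lay on chromosomes 11, 12 and 4, and replicate 1 was the higher at the tallest. The highest snRNA sites in replicate 1 alone were also at U1 genes, Gm22068 (1.87) and a second site of Rnu1a1 (1.70), and snRNA genes had none in replicate 2 alone. The pair of U4 genes Gm24265 and Gm24407 on chromosome 5 had 2.11 and 2.33, and 2.67 and 2.26. The U11 gene Rnu11, of the minor spliceosome, had 2.40 and 0.936 in a site over the gene and 2.075 and 1.12 in another upstream. Second shared sites also lay at Gm22513 (2.82 and 1.68) and at the U2 genes Rnu2-10 (1.71 and 0.742) and Gm23444 (1.55 and 0.710). Gm22710, an snRNA gene in an intron of Clasp1 whose site overlaps a lncRNA start, had 2.99 and 2.96. By symbol, 4 of the 11 spliceosomal and U7 genes named Rnu had a site in both, against 2.09% of all snRNA genes. They were Rnu11, Rnu1a1, Rnu2-10 and Rnu5g. Rnu12, Rnu1b1, Rnu1b2 and Rnu1b6 had none. Rnu12 and Rnu7, which also had no site, each had a peak within the start limit.

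The sites of the U RNA genes lay upstream of the gene more often than over it. Of 27 pairs of a U family gene and a site found in both replicates, the midpoint was upstream in 19, over the gene in 5 and downstream in 3, with a median of -227.5 bp from the 5' end. Over all types the same position had a median of -34.5 bp (133 pairs, 55.6% upstream), and at miRNA genes of -2.5 bp (57 pairs, 52.6% upstream). The rule admits both sides of the gene alike, within 200 bp. The octamer was present within 300 bp upstream of 17 of the 27 snRNA genes with a site in both (63.0%), of 3 of 21 with a site in 1 replicate (14.3%) and of 40 of 1244 with none (3.22%). For U2 these counts were 8 of 8, 2 of 2 and 1 of 15. For U6 they were 3 of 4, 0 of 6 and 21 of 645, so most U6 genes with the octamer had no site. In the central 200 bp, 10 of 31 shared snRNA sites held it. Over all types it was in 12 of 121 shared sites (9.92%), against 1.16% of 30375 regions found in both replicates and away from coding starts.

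**Figure D2:**
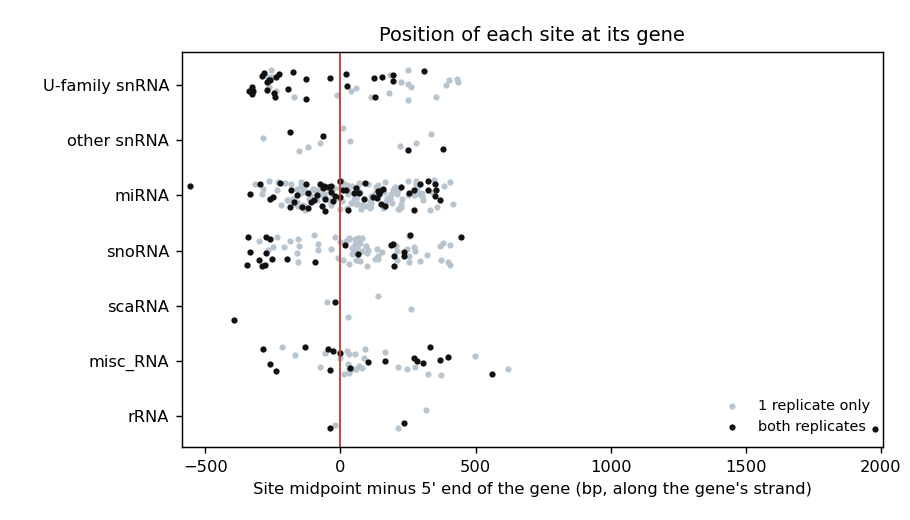
Midpoint of each site relative to the 5' end of its gene (horizontal axis, bp along the gene's strand), by gene type, with sites found in both replicates in black and others in grey. Black points of the U family genes gather upstream of the gene, around their median of -227.5 bp, while those of miRNA genes spread on both sides. The black point far right is CT010467.1, a longer rRNA gene, at 1976.5 bp.

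Copies of U RNA genes are alike, and this limits where reads can be placed. In the 27 snRNA genes with a site in both, a median of 85.9% of the 32-base words of the gene occurred at another place on the chromosomes. In the 31 sites themselves the median was 2.08%, and in 4 of them over 50% of words were repeated. The sources used here do not say how reads that match several places were treated. Of 93 snRNA genes with an identical copy in the annotation 11 had a site in both (11.8%), against 16 of 1199 without one (1.33%).

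**Figure D3:**
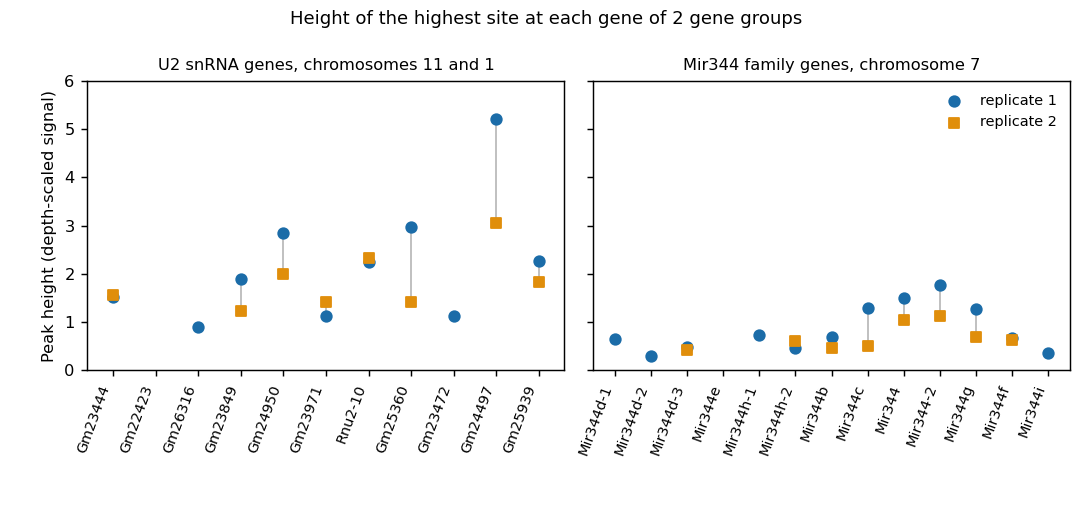
Height of the highest site at each U2 gene of chromosomes 11 and 1 (left) and each Mir344 family gene of chromosome 7 (right), in genomic order, with circles for replicate 1 and squares for replicate 2 and no mark where no site was found. The U2 genes reach 5.21 and the Mir344 genes 1.78 in replicate 1.

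Of the neuronal miRNA list, 7 of 20 genes had a site in both replicates (35.0%), 4 in replicate 1 alone and 9 none. The background is 2.73% of all 2054 miRNA genes, and 2.18% of all 5682 genes of the 6 types. In the list of glial, immune and vascular miRNAs 0 of 18 genes had a site, among them Mir126a, Mir126b, Mir142 and Mir142b, although 2 had a peak within the start limit. In the list of other tissues 0 of 36 had one, with Mir10a, Mir10b, Mir122 and Mir133a-1 among them. Of 44 broadly expressed miRNA genes 1 had a site in both. The lists were drawn up with results of these data known, and no test was made. In bulk tissue, fewer cells with an open site and less opening per cell cannot be told apart.

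The site of Mir212 and Mir132, which are processed from 1 transcript induced by neuronal activity, had 7.14 and 3.81. It covered the Mir132 hairpin (chr11:75173682-75173747) and held the cAMP response element shown above. A second site at Mir212, with 2.45, was called in replicate 1 alone and also held that word, and an interval of the authors' FDR list of replicate 2 lay over it with a log10 FDR of -12.68. Mir9-3, of the miR-9 family that acts in neural progenitors and neurons, had 6.65 and 2.95, with the same word. Mir124a-3 and Mir124a-1, of the most abundant family of brain miRNAs, had 1.73 and 1.41, and 1.18 and 1.14. Mir128-2 had 1.05 and 1.18, and Mir137, which acts on synaptic genes, had 0.973 and 0.925. By height the 2 highest sites were higher in replicate 1, with log2 ratios of replicate 2 over replicate 1 of -0.91 and -1.17, and at the others the replicates lay closer together. Over the Mir9-3 site the order of the lowest log10 FDR was the reverse, -19.03 in replicate 1 and -72.89 in replicate 2. At Mir9-3 the replicate 1 peak, and at Mir124a-3 and Mir124a-1 the replicate 2 peak, overlapped the site but missed the 200 bp limit itself. The 7 genes rest on 6 sites, whose medians were 1.45 and 1.30, against 1.67 and 1.33 over all shared sites. Mir124a-2 (0.439), Mir129-2 and Mir129b (0.685, 1 site) and Mir9-1 (0.909) were found in replicate 1 alone. Mir128-1, Mir129-1, Mir134 and Mir138-1 had none.

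Mirlet7i, of the let-7 family that restrains growth genes, had 2.16 and 1.66, and was the only one of the 44 broadly expressed genes with a site in both. Mir125b-2 had 0.824 in replicate 1 alone. Of the other list members without a site, Mir100, Mir101a, Mir101b and Mir101c come first by name.

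The Mir344 family, a rodent cluster on chromosome 7 chosen here after its values were seen, had a site at 12 of 13 genes within 402 kb, 8 of them in both replicates. Over all miRNA genes 2.73% had a site in both. Heights at the 8 genes ran from 0.460 to 1.78 in replicate 1 and from 0.420 to 1.12 in replicate 2. Mir344-2 was the highest with 1.78 and 1.12, then Mir344 with 1.5 and 1.03, Mir344c with 1.29 and 0.495, and Mir344g with 1.27 and 0.688. Replicate 2 was the higher at 1 of the 8, Mir344h-2. In the same cluster Mir344d-1, Mir344d-2, Mir344h-1 and Mir344i were found in replicate 1 alone, with 0.642, 0.289, 0.727 and 0.364, and Mir344e had no site.

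4 sites of miRNA-typed genes lay within 200 bp of a RefSeq transfer RNA gene, and all were found in both replicates. They were chosen after their values were seen, apart from Mir8105. Mir8105, beside the serine tRNA gene n-TScga2, had 6.60 and 3.9. The serine tRNA gene n-TStga1, itself typed as miRNA, had 4.22 and 2.72. Mir1983, at the isoleucine tRNA gene n-TItat14, had 2.74 and 2.94, and Mir760, at the arginine tRNA gene n-TRtct2, had 1.34 and 2.92. By these heights the first 2 were higher in replicate 1 and the third was level. Mir760 was higher in replicate 2, by 1.12 on the log2 scale, the most of all 121 shared sites. Its joined site is wide (chr3:122293181-122294340), and the lowest log10 FDR over it was -26.71 in replicate 1 and -12.69 in replicate 2. Whether the 2 heights come from the same part of the site was not tested. The B box was in 3 of these sites, in 4 of 121 shared sites (3.31%) and in 0.583% of the regions found in both replicates.

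The highest site typed as miRNA was at Gm23935, with 18.4 and 36.2. In this site 95.8% of 32-base words were repeated on the chromosomes, at a median of 4 places, and a second site at the gene was called in replicate 2 alone with 4.77. Gm24328, in an intron of Nsmf, had 4.94 and 3.19. The highest miRNA sites in replicate 1 alone were at Mir3569 (3.16) and Mir449c (2.96), and the next highest in replicate 2 alone was at Mir3081 (1.41). At Mir3569 an interval of the authors' FDR list of replicate 2 reached a log10 FDR of -6.15, and at Mir449c none was listed. At Mir3081 a replicate 1 peak of 1.37 lay beside the replicate 2 peak without overlapping it.

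Of the 14 shared snoRNA sites, 3 overlapped the start of a lncRNA, which can host snoRNAs. Snord49b, which guides methylation of ribosomal RNA, had 8.18 and 4.42 in a site overlapping the start of the lncRNA gene 2410006H16Rik. Gm23639, named SNORA13 by RefSeq, had 4.27 and 2.09 at the start of Epb41l4aos. Snora26, chosen after its values were seen, had 1.10 and 2.27 at the start of Dancr, one of 4 sites where replicate 2 was the higher. So by height the tallest of the 3 were higher in replicate 1 and Snora26 in replicate 2. Over the Snora26 site the lowest log10 FDR was -52.73 in replicate 1 and -11.94 in replicate 2, the reverse order. Medians over all shared sites were -12.31 and -4.79. Whether the 2 heights at Snora26 come from the same part of the site was not tested. Away from such starts, the site shared by Snord104 and Gm22711 had 3.94 and 2.48. Rnu3b3, a copy of the U3 RNA that acts in early processing of ribosomal RNA, had 2.93 and 1.76, and 4 of 15 U3 entries had a site in both, at 2 of 9 loci, since some loci are entered more than once. Gm23596, named SNORA17, had 3.03 and 1.59. Replicate 1 was the higher at 10 of the 14 shared snoRNA sites, and the log2 ratio of replicate 2 over replicate 1 had a median of -0.67.

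Snord118 (the U8 RNA, transcribed from its own promoter) had a site of 3.31 in replicate 1 alone, holding the octamer and CCCAGAATG, a word bound by ZNF143. An adjoining site had 1.65 and 1.03. Over the first site the lowest log10 FDR was -8.77 in replicate 1 and -1.47 in replicate 2. Gm25129 had 1.42 in replicate 1 alone, and the highest in replicate 2 alone were Gm25210 (0.936, 98.1% of words repeated) and Snord59a (0.925).

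RefSeq names 425 of the snoRNA genes SNORA17, a large set of copies that was examined after its values were seen. Of these 26 had a site, 2 in both replicates, 23 in replicate 1 alone and 1 in replicate 2 alone. The 23 sites in replicate 1 alone had heights of 0.118 to 1.29 with a median of 0.572, and their midpoint lay over the gene in 19. The word AGGTGGCAG was in 18 of those 23. It was present within 192 of the 425 genes, of which 22 had a site (11.5%), against 4 of the 233 genes without it (1.72%). Over all 345 sites it was in 28 (8.12%), of which 26 were in replicate 1 alone and 19 at SNORA17 genes. Over 112942 regions of either replicate it was in 1.71%.

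Of the list of snoRNA symbols drawn up for imprinted clusters 0 of 23 genes had a site, including AF357341, AF357399, AF357425 and AF357428. AF357399 (chr7:28351508-28351632) lies away from the others of the list, so whether it belongs to an imprinted cluster was not examined. By RefSeq product, 2 of 131 SNORD115 genes and 2 of 67 SNORD116 genes had a site, none in both replicates. In these 4 sites, Gm22252, Gm23688, Gm23265 and Gm25210, 71.6%, 94.8%, 100% and 98.1% of 32-base words were repeated on the chromosomes, at medians of 34 to 70 places. They were chosen after their values were seen, apart from Gm25210. Of 51 miRNA genes listed for the imprinted cluster on chromosome 12, of which Mir496b lies on chromosome 19, 4 had a site, in replicate 2 alone. They rested on 2 peaks of 0.312 each, one at Mir329 and one at Mir494, Mir679 and Mir1193. Among scaRNA genes, whose RNAs guide changes to the spliceosomal RNAs, Scarna2 had 5.73 and 2.44. Gm26083, at the start of Snhg20, had 2.82 and 1.83. Scarna17 with Gm23119 (1.05) and Scarna13 (0.738) were found in replicate 1 alone, and Scarna3a, Scarna3b, Scarna6 and Scarna8 had none. Over the Scarna17 site an interval of the authors' FDR list of replicate 2 reached a log10 FDR of -6.75. Scarna17 also had a peak within the start limit.

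Genes read by RNA polymerase III in the misc_RNA type had sites in both replicates at 4 of 7 list members, against 3.23% of all misc_RNA genes. Rn7s2, a gene of the signal recognition particle RNA, with the miRNA-typed genes Gm47299 and Gm47305 at the same place, had 12.4 and 5.95, the third highest site of all. Vaultrc5, the vault RNA, had 4.81 and 2.56, the Y RNA gene Rny1 had 2.67 and 1.84, and Rn7sk, whose RNA holds back elongation by RNA polymerase II, had 1.51 and 1.53. The first 3 were higher in replicate 1 and Rn7sk was level. The medians over the 4 were 3.74 and 2.20, above those of all shared sites. Rny3 had 0.824 in replicate 1 alone, Rn7s6 had none and Rn7s1 had a peak within the start limit. The telomerase RNA gene Terc had 1.98 and 1.81 in one site and 0.685 and 1.08 in another.

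The other misc_RNA genes include conserved pieces of lncRNAs entered as genes of their own. Sites at the start of the lncRNA they belong to were found at Gm27972 (Dleu2), with 6.05 and 2.95, Gm27913 (Pvt1), with 2.01 and 1.75, Gm27596 (Meg3), with 2.25 and 1.10, and Gm27357 (Miat), with 1.67 and 1.80. The site shared by Gm28030 and Gm27286 had 4.26 and 2.31 at the start of 5430416N02Rik. Terc, Gm27913, Gm27596 and Gm27357 were chosen after their values were seen. Of all 121 shared sites, 29 lay within 500 bp of a lncRNA start (24%), against 4.22% of regions found in both replicates. By annotation 61 were intergenic (50.4%), against 43.4% of those regions. In an intron of a coding gene lay 22 (18.2%), against 41.0% of those regions. Gm27813 (1.23) and Gm27998 (1.16) were the highest in replicate 1 alone, and Gm27373 (1.06) and another site at Gm27813 (1.01) in replicate 2 alone.

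At rRNA genes the site of CT010467.1 (chr17:39846781-39846920) had 53.9 and 79.2, the highest autosomal peak of both replicates. In it 82.6% of words occurred at another place on the chromosomes. Gm24931 had 1.48 and 0.871 and Gm23764 had 0.973 and 0.688. The 5S rRNA entries n-R5s73 (0.840) and n-R5s172 (0.321) were found in replicate 1 alone.

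At the 121 shared sites replicate 1 was usually the higher. Log2 ratios of the replicate 2 height to the replicate 1 height had a median of -0.41 and ran from -1.64 to 1.12, and replicate 2 was the higher at 40. The ratio was within 1.5-fold at 57 sites. Over 32542 pairs of overlapping peaks away from coding starts the median was -0.50. Among the 20 highest sites replicate 2 was the higher at 3, CT010467.1, Gm23935 and Gm24270 (2.56 and 4.18). In all 3 over 50% of words were repeated, a share exceeded by 24 of 345 sites (6.96%) and by 91 of 5648 regions, every 20th of all (1.61%). Of the 121 shared sites 11 exceeded it. Replicate 1 was the higher at Gm24187 (70.4%, log2 ratio -1.64, the lowest of all), Rnu3b3 (75.2%, -0.73) and Gm24950 (55.0%, -0.51), and replicate 2 at the rest of the 11. The part of repeated sequence in the heights of these sites was not tested.

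**Figure D4:**
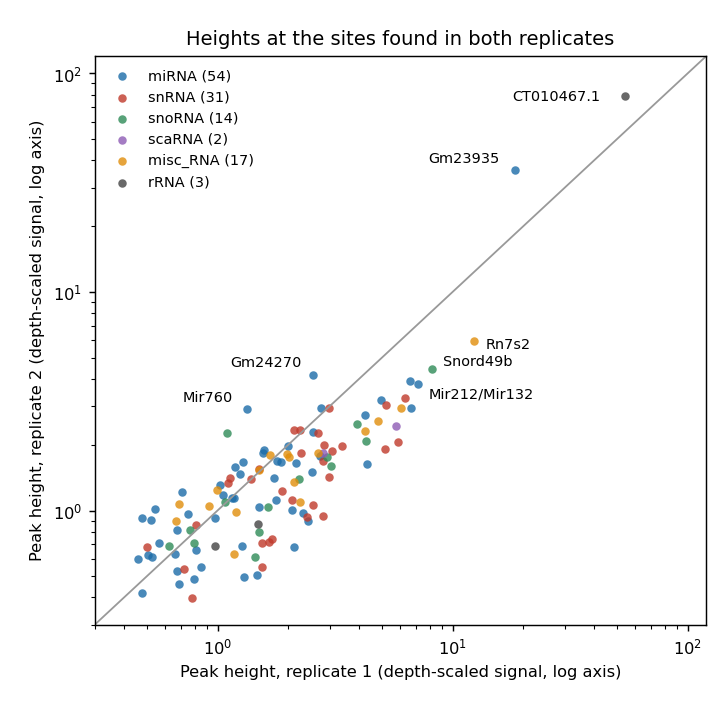
Height of the 121 sites found in both replicates, replicate 1 on the horizontal and replicate 2 on the vertical axis (both log axes), coloured by gene type, with each site drawn once and a line at equal heights. Rn7s2, Snord49b and Mir212/Mir132 lie below the line, while CT010467.1, Gm23935, Gm24270 and Mir760 lie above it.

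Presence in both replicates went with height. The peaks of a replicate away from coding starts were split by height into 4 bins of about equal count. In the lowest bin of replicate 1 heights 0 of 53 member peaks were found in replicate 2 (upper bound 6.72%), against 6.51% of all peaks away from coding starts. In the highest bin it was 90 of 110 (81.8%, 73.3 to 88.5%), against 70.5%. In the middle bins the shares were 15.2% and 25.6%, against 15.7% and 29.5%, within counting error. For replicate 2 the shares from the lowest to the highest bin were 38.5%, 62.5%, 80.6% and 95.7%, against 52.4%, 76.4%, 90.7% and 98.1%. They were below the background in all 4 bins, and each exact interval included it (20.2 to 59.4%, 40.6 to 81.2%, 64 to 91.8% and 88 to 99.1%). Members were taller than other peaks, with medians of 0.749 and 1.07 against 0.610 and 0.785. Sites in replicate 1 alone had a median of 0.548, those in replicate 2 alone 0.581, and shared sites 1.67 and 1.33. Over the 190 sites in replicate 1 alone, an interval of the deposited FDR lists lay over the site in replicate 2 at 22 (11.6%), and over the 34 in replicate 2 alone one lay over it in replicate 1 at 12 (35.3%). The same shares over all regions in 1 replicate alone were not computed, so these have no background.

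**Figure D5:**
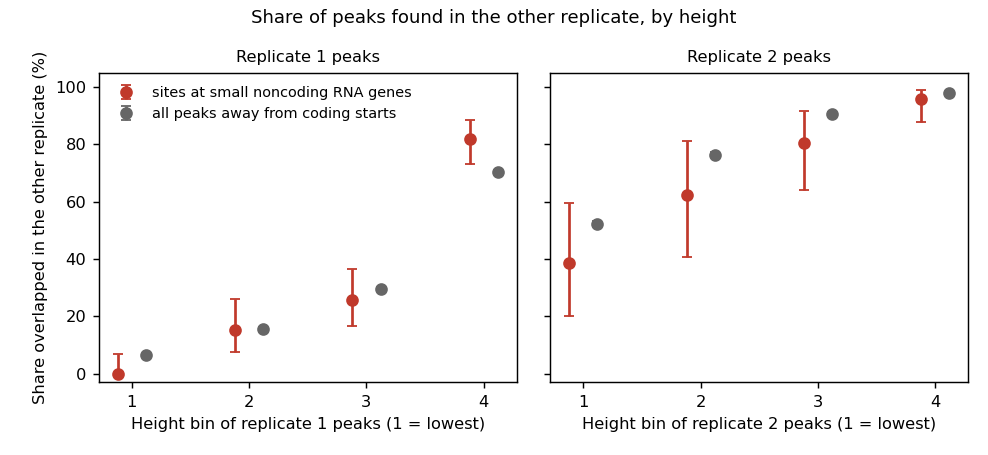
Share of peaks that overlap a peak of the other replicate (vertical axis, %), by height bin (1 lowest, 4 highest), for replicate 1 peaks (left) and replicate 2 peaks (right), with 95% exact intervals. In the highest bin of replicate 1 the sites at small noncoding RNA genes reach 81.8% and all peaks away from coding starts 70.5%.

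Shared sites had a median width of 280 bp and a median GC content of 56.0%, against 236 bp and 52.1% for all regions found in both replicates. A footprint, a short protected stretch inside a peak, was listed in 95.9% of them in replicate 1 and in 79.3% in replicate 2, against 93.6% and 76.3%. Of the 15 words searched, the cAMP response element was in 6 shared sites (4.96%), against 0.481% of regions found in both. They were the sites of Mir212 with Mir132, Mir9-3, Rn7s2, Gm27596, Gm27913 and Gm24931. Words that were rarer than in the regions were CAGATG, bound by neuronal bHLH factors, in 14% against 27.9%, and TGANTCA, bound by AP-1, in 1.65% against 7.66%. A match is a description of the letters and not a sign of binding.

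The limits of the rule left both low and tall peaks on either side. Just over 500 bp from a coding start were Gm22513 (504 bp from Eapp, 5.16 and 1.91), Gm44367 (507 bp, 0.581 in replicate 2), Gm26330 with Snord55 (523 bp, 0.765 and 0.818) and Gm44354 (527 bp, 0.390 in replicate 1). Just inside that distance, and so left out, were peaks at Gm47307 (0.412, 500 bp) and Mir8116 (0.963, 478 bp) in replicate 1 and at Gm26308 (1.00, 482 bp) and Gm27960 (1.02, 474 bp) in replicate 2. In all 174 and 162 peaks at these genes were left out as too near a coding start. At the gene limit, Gm23444 (0.428), Mir6942 (0.508) and Snord49b (8.18) were taken at 198 bp in replicate 1 and Mir7217 (0.516) at 197 bp in replicate 2. Peaks at Rny1 (1.84, 200 bp), Gm25187 (0.710, 201 bp) and Gm24265 (2.26, 201 bp) in replicate 2 and at Nkx2-2os (3.09, 202 bp) in replicate 1 fell outside.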

How the data were processed

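DNase-seq of hippocampus was analysed in 2 samples, the biological replicates of 1 group. The authors deposited, for each sample, peaks with a height (a signal value, column 7), intervals with a false discovery rate (FDR, a q-value per interval) and footprints on mm10. Per the deposited descriptions, peaks were derived from each sample's own alignments, replicates not pooled, and the FDR values and footprints likewise. No source used here names the aligner, peak caller, thresholds or treatment of multiply matching reads. Heights in the authors' peak lists were whole multiples of 1 step, 0.00535 in replicate 1 and 0.0108 in replicate 2, to within 9.22e-05 of a step, as a read count scaled by depth would be. If a step is 1 read, replicate 1 was sequenced 2.01 times as deeply. Depth itself is not stated, and the longer list of each sample was used. Only positions were used of the footprints.

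The members and lists were chosen with earlier results of these data known. Starts and gene types came from GENCODE M21, names, families and sequences from RefSeq on GRCm38. A star in a listed miRNA symbol was read as a member letter or copy number. Sites were joined peaks with at least 1 bp of overlap. Words were searched on both strands in the central 200 bp of each site. Repeated 32-base words were counted over the assembled chromosomes. Named genes were, per type, the 6 with the highest shared sites, the 2 highest in each replicate alone, listed genes with a shared site, up to 4 listed genes without one, and the 4 nearest each limit. Intervals were exact Clopper-Pearson, and no test between conditions was possible with 1 group. Overlap and distance functions were tested on simulated intervals. The alternatives changed the gene window, start limit, overlap, list and copies. Python 3.11.15, pandas 2.3.3, numpy 2.4.6, scipy 1.17.1, pysam 0.24.0 and matplotlib 3.10.9 were used. Sequences are shown for some sites only.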

Additional observations from a re-analysis of the deposited data

How the results depend on the processing

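The log2 ratio of heights at shared sites had a median between -0.63 and -0.18 in all 10 alternatives, always with replicate 1 higher. For replicate 1 peaks, the share overlapping a peak of the other replicate stayed within its interval in 8 of 10 alternatives. It was 25.7% with 50% reciprocal overlap, against 19.8% of all such peaks, and 65.2% with lists of equal length, against 57%. The replicate 2 share stayed within its interval in 8 of 10. It was 51.9% with 50% reciprocal overlap, against 52.7%, and 66.0% with lists of equal length, against 59.1%. The replicate 1 share was above its background in all 10 alternatives, but with peaks near starts of every other gene type left out (34.6% against 29.8%) its interval, 28.8 to 40.7%, included the background. The replicate 2 share was above its background in some and below it in others. The 124 genes with a site in both replicates became 75 with no window around the gene, 197 with a 500 bp window, 80 with 50% reciprocal overlap and 82 with the shorter deposited list. With 1 replicate left out, the genes with a site numbered 145 to 291, and shares and ratios have no value. Of the alternatives, 2 (other transcript starts and leaving out repeated sequence) were chosen after seeing the data, and gave 117 and 112 genes. Where a value moved, the cause was not tested beyond the change of setting itself. No paired analysis was possible because the series has 1 group.

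With 2 replicates whose depth is not stated and appears unequal, presence in 1 alone cannot be told apart from a peak below the limit of the other, and lists differ in length. Copies of a gene cannot be separated where their sequence is the same.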

Other observations

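Among the 5205 genes without a peak near them, an interval of the deposited FDR lists lay at 52 in replicate 1 and at 23 in replicate 2, and at 10 in both. These genes are not counted among the sites.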
